A study of Mus musculus with 9 samples.

Results

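The 10 genes described here encode receptors for extracellular ATP, ADP, UDP and adenosine and surface enzymes that degrade these nucleotides. They were chosen by symbol (P2ry12, P2ry13, P2ry6, P2rx4, P2rx7, Entpd1, Entpd3, Nt5e, Adora3 and Adora2a). All 10 were found among the 18571 genes of the deposited table, and all 10 were among the 14696 genes that passed the filter on low counts. Entpd3 passed it through its WT and cKO libraries, because its APP/PS1 libraries held 4 to 9 counts.

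Microglia, the resident macrophages of the brain, sense nucleotides that active or damaged cells release. ADP acts on the Gi-coupled receptors P2RY12 and P2RY13, and P2RY12 steers microglial processes towards the nucleotide source. ATP opens the cation channels P2RX4 and P2RX7, the latter a trigger of inflammasome activation at high ATP, and UDP acts on P2RY6, which promotes phagocytosis. CD39 (Entpd1) and NTPDase3 (Entpd3) break ATP and ADP down to AMP, CD73 (Nt5e) turns AMP into adenosine, and adenosine acts on the Gs-coupled receptor ADORA2A and the Gi-coupled receptor ADORA3.

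The RNA came from CD45-captured microglia of cortex and hippocampus of 9-month-old mice on a C57BL6/j background. Wild-type mice (WT), APP/PS1 mice, which carry human transgenes of familial Alzheimer's disease and deposit amyloid, and APP/PS1:Cx3cr1-CreER:Cx43-flox/flox mice, called Cx43 cKO in the plots and cKO in the text, gave 3 libraries each. In cKO, tamoxifen activates a Cre recombinase expressed from the Cx3cr1 locus, which is used by microglia and by other macrophages and monocytes, and the recombinase deletes floxed connexin 43 (Gja1), a gap junction and hemichannel protein through which ATP can leave cells. Per the labels, all 3 groups received tamoxifen by gavage at 8 months of age (0.1 mg/g on 5 days), and neither CreER nor floxed alleles are named for WT and APP/PS1. As labelled, cKO therefore differs from APP/PS1 in the CreER allele as well as in Cx43. The labels do not say how many mice a library holds or whether replicates were prepared apart, so p-values measure only the spread between these libraries, which may be technical.

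Total estimated counts ran from 18907681 to 19565354 per library, and the spread within groups was small, with a biological coefficient of variation of 3.14%. With the replicate number as a block this coefficient was 0.988%, so part of the spread was shared by same-numbered libraries of different groups. No pair of libraries of a group agreed within sampling noise (chi-square per gene 1.80 to 3.54 over 9 pairs). Gja1 was at 33.6 CPM for WT, 39.7 CPM for APP/PS1 and 26.9 CPM for cKO, with a log2 change of -0.56 between the last 2 groups (edgeR adjusted p 7.95e-09). Astrocytes also express Gja1, and 11 of 12 astrocyte markers were lower in the same comparison (median log2 change -0.46), so the part of astrocyte RNA in this label check was not tested. All 17 listed microglia markers were detected in every group, and their summed level was 31630 to 31770 CPM for WT, 42860 to 43000 CPM for APP/PS1 and 35830 to 35970 CPM for cKO. The summed level of 15 monocyte and neutrophil markers was 3367 to 3401 CPM for WT, 994 to 1025 CPM for APP/PS1 and 9744 to 9939 CPM for cKO, and none of these markers was at 0 in a group. The Y-linked gene Ddx3y was at 208 CPM for WT and 237 CPM for APP/PS1 but had 0 to 2 counts in each cKO library, so sex-linked expression and Cx43 genotype cannot be told apart in any comparison with cKO. Cx3cr1, whose locus carries CreER in cKO, was at 2260 CPM for WT, 2231 CPM for APP/PS1 and 1214 CPM for cKO. The CreER allele and Cx43 genotype likewise cannot be told apart there.

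To see how purinergic genes differ with amyloid and with the cKO genotype, each gene was tested in the 3 comparisons between groups with edgeR. Between APP/PS1 and WT, 7 of the 10 genes passed an adjusted p of 0.05 (2 higher, 5 lower), where 59.0% of all tested genes passed (26.9% higher, 32.0% lower). In cKO against APP/PS1, 8 of 10 passed (4 higher, 4 lower), where 55.0% of all genes did (27.3% higher, 27.7% lower). In cKO against WT all 10 passed (5 higher, 5 lower), where 47.7% of all genes did (24.7% higher, 23.0% lower). The libraries of the groups did not overlap for 8, 10 and 10 of the genes, against 63.5%, 59.7% and 54.6% of all genes. At a change of at least 2-fold, 1, 2 and 0 of the 10 genes were called, against 8.55%, 7.65% and 5.19% of all genes. Those called were Entpd3 in the first comparison, and Entpd3 and Nt5e in the second. Entpd3 held 4 to 9 counts in the APP/PS1 libraries. With at least 10 counts required in every library Entpd3 could not be tested, and 6 of 9 genes passed in the first comparison. The median log2 change of the 10 genes was -0.09, -0.05 and 0.06, and that of all tested genes was -0.04, -0.01 and -0.01. The median size of the change, sign left aside, was 0.28, 0.22 and 0.23 for the 10 genes and 0.25, 0.23 and 0.19 for all genes. As a group the 10 genes were therefore called about as often as other genes in the first comparison, and what follows concerns which genes went which way. The comparisons share their control libraries and are not independent of each other.

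**Figure D1:**
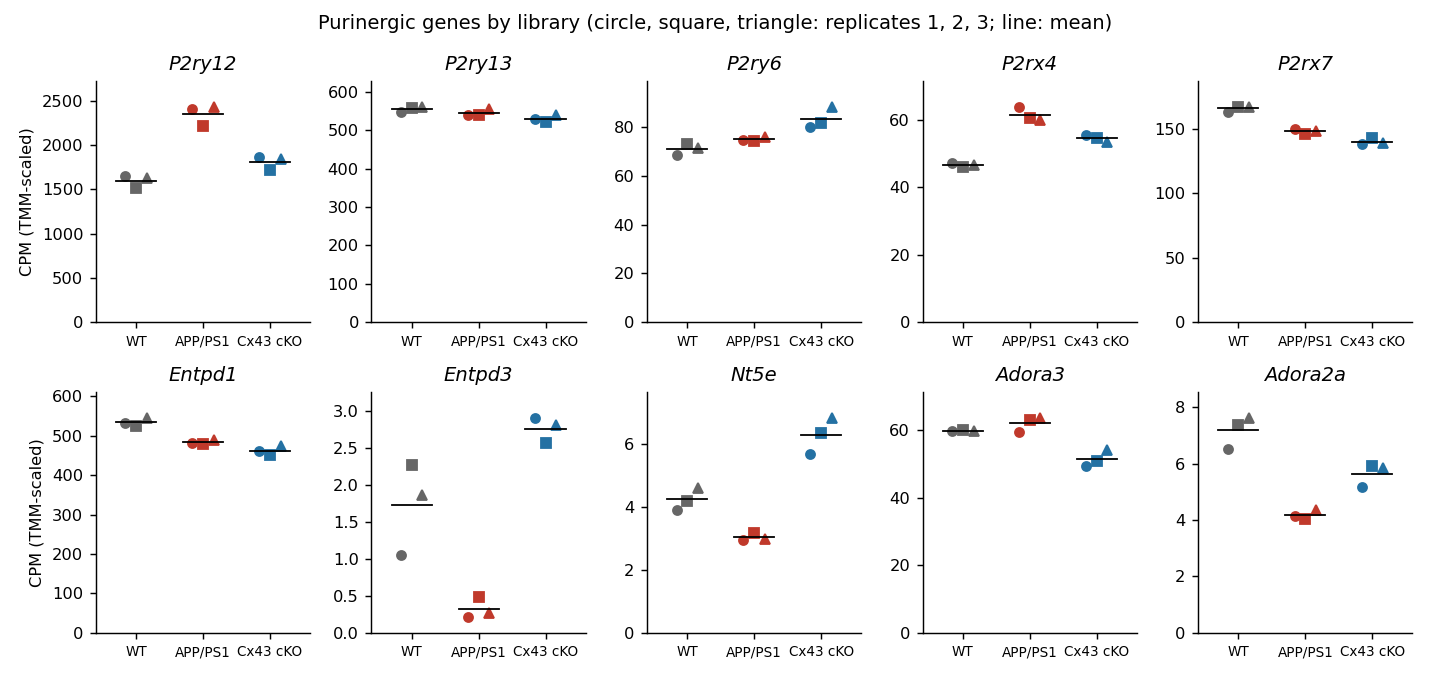
Normalised level (CPM on TMM-scaled library sizes, y axes from 0) of each of the 10 genes in the 9 libraries; circles, squares and triangles are replicates 1, 2 and 3, and lines are group means. P2ry12 and P2rx4 are highest in APP/PS1, while Entpd3, Nt5e and Adora2a are lowest there.

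P2ry12, the ADP receptor that marks homeostatic microglia, was the most abundant of the 10 genes and was higher in APP/PS1. It read 1654, 1514 and 1622 CPM for WT, 2408, 2218 and 2430 CPM for APP/PS1, and 1862, 1717 and 1844 CPM for cKO. The libraries formed 3 separate ranges, with every cKO library between WT and APP/PS1. P2ry12 rose 1.47-fold in APP/PS1 over WT (log2 change 0.56, SE 0.04, edgeR adjusted p 7.83e-08), fell by 23.1% in cKO against APP/PS1 (log2 change -0.38, SE 0.04, edgeR adjusted p 4.94e-06) and was 13.2% higher in cKO than in WT (log2 change 0.18, SE 0.04, edgeR adjusted p 0.00365). The summed microglia markers moved with it, being 1.36-fold higher in APP/PS1 than in WT, and in bulk RNA fewer cells of a type and less RNA per cell cannot be told apart. Relative to those markers, P2ry12 was at 50.4 ± 2.40 per 1000 marker CPM for WT, 54.8 ± 2.77 in APP/PS1 and 50.3 ± 2.27 in cKO (SD, n = 3), and the libraries of the groups overlapped in each comparison (two-sided exact permutation p 0.2 for APP/PS1 against WT, 0.2 for cKO against APP/PS1 and 0.9 for cKO against WT). With the geometric mean of the markers as the scale, the log2 change in APP/PS1 against WT was 0.04 (edgeR adjusted p 0.529), and with the marker sum as the scale the change in cKO against WT turned to -0.0014.

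P2ry13, the sister receptor for ADP, lies beside P2ry12 and read nearly the same in the 3 groups under TMM scaling. Its libraries were at 549, 558 and 561 CPM for WT, 540.3, 540.5 and 554 CPM for APP/PS1, and 528, 522 and 539.5 CPM for cKO. WT and APP/PS1 overlapped, and every cKO library was lower than every other. The log2 change was -0.03 in APP/PS1 against WT (edgeR adjusted p 0.382) and -0.04 in cKO against APP/PS1 (edgeR adjusted p 0.217), neither of which passed with TMM, and -0.07 in cKO against WT (SE 0.03, edgeR adjusted p 0.0387), which did. That last call was lost without WT replicate 2 or 3 or without cKO replicate 1 or 2, at log2 changes of -0.07 to -0.06. The change in cKO against APP/PS1 passed as lower with length offsets (-0.08, edgeR adjusted p 0.0157) and turned positive on the TPM and marker scales. The change in APP/PS1 against WT was called lower with library totals (-0.17, edgeR adjusted p 5.46e-06), on FPKM (-0.17 with either pseudocount), on TPM (-0.42) and with both marker scales (-0.47 for the sum, -0.55 for the geometric mean). Relative to the microglia markers P2ry13 was lowest in APP/PS1, at 12.7 ± 0.181 per 1000 marker CPM against 17.5 ± 0.205 in WT and 14.8 ± 0.239 in cKO (SD, n = 3), with no overlap between groups (two-sided exact permutation p 0.1 for each pair, the smallest that 3 against 3 allow).

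On GRCm38.p6, P2ry12 occupies chr3:59216271-59262985 and P2ry13 chr3:59207892-59210882, both on the minus strand and 5389 bp apart. Both lie inside the mediator subunit gene Med12l on the plus strand, whose annotated exons overlap those of P2ry12 by 9 nt and those of P2ry13 by 0 nt. Med12l was at 36.1 to 44.7 CPM by group and moved the other way from P2ry12 (log2 change -0.31, 0.15 and -0.16 in the 3 comparisons, edgeR adjusted p 4.68e-06, 0.0112 and 0.00826). The start-site windows of the pair are shown because these adjacent genes had different changes across the same libraries. Each holds 250 bases before and 50 bases from the annotated start (RefSeq, GRCm38.p6, minus strand, chr3:59262936-59263235 for P2ry12 and chr3:59210833-59211132 for P2ry13), and capitals mark the palindrome CACGTG, which contains the hypoxia-factor core ACGTG on both strands.
P2ry12: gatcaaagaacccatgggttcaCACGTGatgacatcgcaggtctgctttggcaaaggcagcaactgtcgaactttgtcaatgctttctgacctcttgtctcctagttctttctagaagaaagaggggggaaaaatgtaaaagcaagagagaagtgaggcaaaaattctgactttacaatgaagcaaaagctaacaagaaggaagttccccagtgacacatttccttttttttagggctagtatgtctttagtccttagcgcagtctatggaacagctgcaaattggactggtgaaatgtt
P2ry13: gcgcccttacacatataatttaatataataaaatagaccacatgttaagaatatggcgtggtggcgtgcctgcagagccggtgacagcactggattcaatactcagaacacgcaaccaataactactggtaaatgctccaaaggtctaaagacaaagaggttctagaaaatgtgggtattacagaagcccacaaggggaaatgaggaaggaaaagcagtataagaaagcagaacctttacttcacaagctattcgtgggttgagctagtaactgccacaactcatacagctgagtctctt
CACGTG was found in 7.15% and ACGTG in 19.6% of all 32851 promoter windows, so the match is common. The P2ry13 window held no match to any of the motifs searched, which were ACGTG, the PU.1 site GAGGAAGT, the AP-1 site TGANTCA, the cAMP response element TGACGTCA and the interferon-stimulated response element, each on both strands.

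P2ry6, the UDP receptor (chr7:100937630-100975498, minus strand), was higher in cKO. It read 68.35, 73.2 and 71.4 CPM for WT, 74.6, 74.4 and 75.9 CPM for APP/PS1 and 79.9, 81.85 and 88.3 CPM for cKO. Every cKO library was above every library of the other groups. In cKO, P2ry6 was 0.15 higher than in APP/PS1 on the log2 scale (SE 0.04, edgeR adjusted p 0.00352) and 0.23 higher than in WT (SE 0.04, edgeR adjusted p 5.32e-05). The change in APP/PS1 against WT was 0.08 (SE 0.04, edgeR adjusted p 0.116), did not pass, passed as higher with DESeq2 size factors (0.0996, edgeR adjusted p 0.0495) in a fit of only these groups (0.11, edgeR adjusted p 0.0199) and in a fit blocked on replicate number (0.08, edgeR adjusted p 0.0321; same-numbered libraries of these 2 groups correlated by 0.14 to 0.26), and was -0.36 when scaled to the marker sum, where the change in cKO against WT was 0.05 (-0.11 with the geometric mean of the markers). Its neighbour P2ry2, a receptor for ATP and UTP that lies 21070 bp away, had a different course, at 12.4 CPM for WT, 5.28 CPM for APP/PS1 and 9.96 CPM for cKO.

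P2rx4 and P2rx7 encode ATP-gated channels and lie in tandem on the plus strand of chromosome 5, P2rx7 at chr5:122643927-122692336 and P2rx4 at chr5:122707518-122729739, 15182 bp apart. Under TMM scaling they moved in opposite directions in APP/PS1. P2rx4 read 47.1, 46.0 and 46.6 CPM for WT, 63.85, 60.4 and 59.8 CPM for APP/PS1 and 55.6, 54.6 and 53.5 CPM for cKO. As for P2ry12, the 3 groups occupied separate ranges, with cKO in the middle. P2rx4 was 1.32-fold higher in APP/PS1 than in WT (log2 change 0.40, SE 0.04, edgeR adjusted p 1.26e-08), fell by 11.1% in cKO against APP/PS1 (log2 change -0.17, SE 0.04, edgeR adjusted p 0.00155) and was 1.17-fold higher in cKO than in WT (log2 change 0.23, SE 0.04, edgeR adjusted p 0.000109). Per 1000 marker CPM, however, P2rx4 was at 1.47 ± 0.0193 in WT, 1.43 ± 0.0529 in APP/PS1 and 1.52 ± 0.0325 in cKO (SD, n = 3), with overlapping libraries (two-sided exact permutation p 0.4, 0.2 and 0.2). On the marker-sum scale the log2 changes were -0.04, 0.09 and 0.05, so the sign of the first and second depends on the scaling, as did that of the third with the geometric mean (-0.11).

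P2rx7 was highest in WT. Its libraries were at 163, 166.9 and 167 CPM for WT, 149.9, 146 and 148 CPM for APP/PS1 and 138, 143 and 139 CPM for cKO. The groups did not overlap and stood in the order WT, APP/PS1, cKO. P2rx7 fell by 10.7% in APP/PS1 against WT (log2 change -0.16, SE 0.03, edgeR adjusted p 7.84e-05) and fell by 15.6% in cKO against WT (log2 change -0.24, SE 0.03, edgeR adjusted p 3.91e-07). With offsets for transcript length the first of these was -0.05 and did not pass. The change in cKO against APP/PS1 was -0.08 (SE 0.03, edgeR adjusted p 0.0364), was lost without APP/PS1 replicate 1 or 3 or cKO replicate 1 or 3 (log2 change -0.08 to -0.07), and turned to 0.18 on the marker-sum scale.

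The windows around the P2rx7 and P2rx4 starts are shown for the same reason as for P2ry12 and P2ry13 (RefSeq, GRCm38.p6, plus strand, chr5:122643677-122643976 and chr5:122707294-122707593), with the AP-1 site TGAGTCA in capitals.
P2rx7: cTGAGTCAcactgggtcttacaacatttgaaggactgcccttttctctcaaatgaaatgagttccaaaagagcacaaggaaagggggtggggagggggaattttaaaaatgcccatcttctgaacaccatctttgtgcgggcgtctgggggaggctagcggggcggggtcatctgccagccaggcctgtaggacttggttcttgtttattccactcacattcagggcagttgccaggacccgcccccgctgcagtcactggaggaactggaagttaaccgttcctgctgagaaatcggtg
P2rx4: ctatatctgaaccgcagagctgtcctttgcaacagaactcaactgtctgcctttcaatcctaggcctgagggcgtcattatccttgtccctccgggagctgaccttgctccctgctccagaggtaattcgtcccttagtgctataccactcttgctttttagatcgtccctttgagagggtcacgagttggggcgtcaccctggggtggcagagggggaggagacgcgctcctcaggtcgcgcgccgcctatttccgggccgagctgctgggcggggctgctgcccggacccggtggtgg
An AP-1 match (TGANTCA) was found in 7.81% of all windows. The P2rx4 window had no match to any motif searched, a GC content of 60.3% and 18 CpG dinucleotides, against 53.3% and 8 in this P2rx7 window and a median GC content of 52.7% over all windows. RefSeq lists a further P2rx7 start at which the PU.1 site was found, on the minus strand, 3 bases into the transcript, and PU.1 sites were in 3.20% of all windows.

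The implied transcript length varied more for P2rx7 than for the other well-counted members. Dividing the deposited count by the deposited FPKM and library size gives the effective length that the counting assigned, which shifts where reads are split differently among isoforms (P2rx7 has 8 annotated transcripts in GENCODE mouse release 21). For P2rx7 this length was 4219, 4169 and 4144 nt in WT, 3981, 4115 and 4072 nt in APP/PS1 and 4048, 4010 and 4088 nt in cKO. All 3 WT values were above the 6 others, and the longest exceeded the shortest by 5.97%. For P2ry12, P2ry13, P2ry6, P2rx4, Entpd1 and Adora3, which had at least 932 counts in each library, that span was 0.0043% to 0.563%.

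Within a library, ratios between members do not depend on library scaling. P2ry12 to P2ry13 was 2.87 ± 0.151 in WT, 4.32 ± 0.187 in APP/PS1 and 3.41 ± 0.118 in cKO (SD of CPM ratios, n = 3). P2rx7 to P2rx4 was 3.56 ± 0.0810 in WT, 2.41 ± 0.0656 in APP/PS1 and 2.57 ± 0.0709 in cKO (SD, n = 3). Neither ratio overlapped between any pair of groups, and each of the 6 comparisons gave a two-sided exact permutation p of 0.1, the smallest possible (0.13 after Benjamini-Hochberg adjustment over the 39 ratios tested). Unequal change of the paired genes was thus present at any scaling, which does not say which gene of a pair moved.

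**Figure D2:**
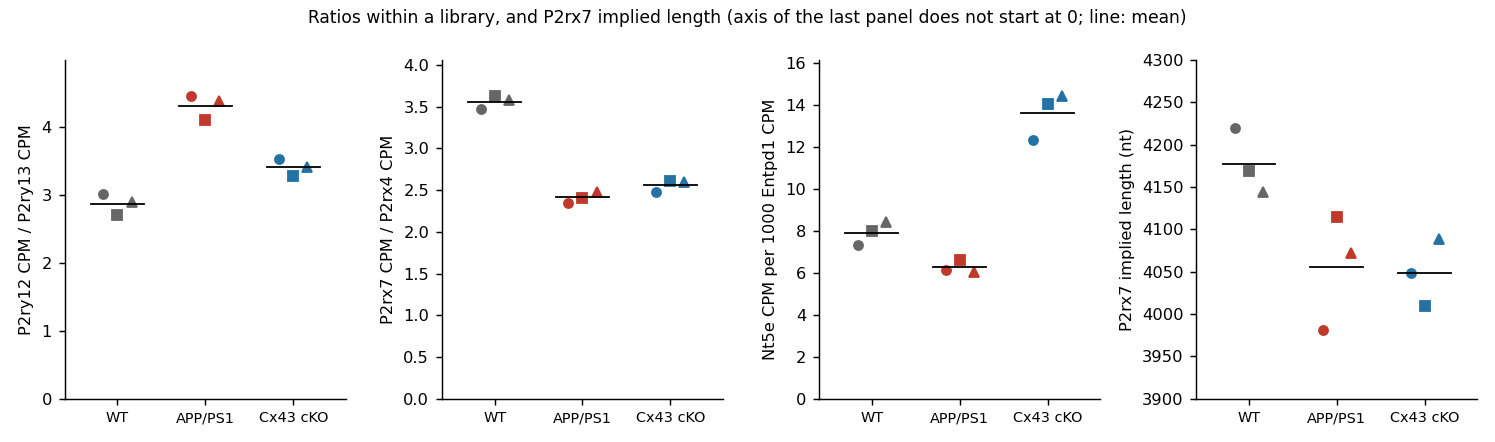
Ratios of CPM within each library for P2ry12 to P2ry13, P2rx7 to P2rx4 and Nt5e per 1000 Entpd1 (y axes from 0), and the implied effective length of P2rx7 in nt (axis not from 0), with replicates 1, 2 and 3 as circles, squares and triangles and group means as lines. The P2ry12 to P2ry13 ratio is highest in APP/PS1, at 4.10 to 4.46, and Nt5e per 1000 Entpd1 is highest in cKO, at 12.3 to 14.4.

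Among the enzymes, CD39 (Entpd1, chr19:40612366-40741602, plus strand) was by far the most abundant. Entpd1 read 532, 525 and 546 CPM for WT, 480.5, 480.0 and 489 CPM for APP/PS1 and 461, 450.3 and 474 CPM for cKO. All WT libraries were above all others. Entpd1 fell by 9.55% in APP/PS1 against WT (log2 change -0.14, SE 0.03, edgeR adjusted p 8.69e-05) and fell by 13.6% in cKO against WT (log2 change -0.21, SE 0.03, edgeR adjusted p 6.70e-07). The change in cKO against APP/PS1 was -0.07 (edgeR adjusted p 0.0530), did not pass, and was 0.19 on the marker-sum scale. With length offsets it passed as lower (-0.13, edgeR adjusted p 0.000383), whereas the change in APP/PS1 against WT was -0.03 and did not pass.

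Entpd3 and Nt5e were counted far less often, were lowest in APP/PS1 and highest in cKO. Entpd3 had 21, 46 and 38 counts in WT (1.05, 2.27 and 1.86 CPM), 4, 9 and 5 counts in APP/PS1 (0.2185, 0.484 and 0.269 CPM) and 55, 49 and 54 counts in cKO (2.91, 2.56 and 2.81 CPM). The 3 groups did not overlap, although WT replicate 1 was well below the other WT libraries. The fitted log2 change was -2.39 in APP/PS1 against WT (SE 0.34, edgeR adjusted p 1.03e-06) and 3.06 in cKO against APP/PS1 (SE 0.32, edgeR adjusted p 4.86e-09). Because Entpd3 passed the filter through WT and cKO alone, the unfiltered fit is given beside these, with -2.39 (edgeR adjusted p 5.71e-08) and 3.07 (edgeR adjusted p 2.44e-11). With 4 to 9 counts in the APP/PS1 libraries, the size of either change is uncertain. Its excess in cKO over WT (log2 change 0.68, SE 0.22, edgeR adjusted p 0.0146) was not called without WT replicate 1 (log2 change 0.42, edgeR adjusted p 0.120). On the log2(TPM + 1) scale, which understates changes of low genes, the log2 changes were -0.89, 1.19 and 0.30, and the last did not pass (limma adjusted p 0.0578).

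The Entpd3 gene lies at chr9:120539818-120568327 on the plus strand, and its start-site window is shown because it shares CACGTG with that of P2ry12 (RefSeq, GRCm38.p6, plus strand, chr9:120539568-120539867). Capitals mark an AP-1 site and the palindrome CACGTG.
Entpd3: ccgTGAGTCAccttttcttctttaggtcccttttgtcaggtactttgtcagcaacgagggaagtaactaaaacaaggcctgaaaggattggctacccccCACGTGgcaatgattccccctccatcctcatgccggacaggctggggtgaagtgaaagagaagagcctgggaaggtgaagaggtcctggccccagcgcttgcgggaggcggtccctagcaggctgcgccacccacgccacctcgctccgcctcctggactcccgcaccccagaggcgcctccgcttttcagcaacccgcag
Of the 8 members with a window in the sequence table, P2ry12 and Entpd3 had CACGTG. AP-1 sites were in the windows of P2rx7, Entpd3 and Adora3, and a PU.1 site was also in that of Adora3. The windows of P2ry13, P2rx4, Nt5e and Entpd1 had no match. These matches are descriptions of letters and were not tested for binding.

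Nt5e, which makes adenosine from AMP (chr9:88327609-88372089, plus strand), had 78, 85 and 94 counts in WT (3.89, 4.19 and 4.60 CPM), 54, 59 and 55 in APP/PS1 (2.95, 3.18 and 2.96 CPM) and 107, 121 and 131 in cKO (5.67, 6.33 and 6.83 CPM). The 3 groups did not overlap. Nt5e fell by 28.3% in APP/PS1 against WT (log2 change -0.48, SE 0.14, edgeR adjusted p 0.00410), was 2.07-fold higher in cKO than in APP/PS1 (log2 change 1.05, SE 0.13, edgeR adjusted p 1.41e-07) and 1.48-fold higher in cKO than in WT (log2 change 0.57, SE 0.12, edgeR adjusted p 0.000332). Nt5e per 1000 Entpd1 was 7.91 ± 0.560 in WT, 6.27 ± 0.300 in APP/PS1 and 13.6 ± 1.13 in cKO (SD, n = 3), with no overlap between any pair of groups (two-sided exact permutation p 0.1 each).

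The adenosine receptor genes Adora2a (chr10:75316877-75334792) and Adora3 (chr3:105904421-105908928), both on the plus strand, had different courses. Adora2a had 131, 150 and 156 counts in WT (6.54, 7.39 and 7.64 CPM), 76, 75 and 81 in APP/PS1 (4.15, 4.04 and 4.37 CPM) and 98, 113 and 112 in cKO (5.19, 5.91 and 5.84 CPM). The groups did not overlap and stood in the order WT, cKO, APP/PS1. Adora2a fell by 41.8% in APP/PS1 against WT (log2 change -0.78, SE 0.11, edgeR adjusted p 1.52e-06), was 1.35-fold higher in cKO than in APP/PS1 (log2 change 0.43, SE 0.12, edgeR adjusted p 0.00336) and fell by 21.5% in cKO against WT (log2 change -0.35, SE 0.11, edgeR adjusted p 0.00880). Without cKO replicate 1 the last change was -0.29 and did not pass.

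Adora3 read 59.9, 60.25 and 59.7 CPM for WT, 59.6, 63.0 and 63.8 CPM for APP/PS1 and 49.4, 50.9 and 54.0 CPM for cKO. WT and APP/PS1 overlapped, and all cKO libraries were lower than all others. Adora3 fell by 17.2% in cKO against APP/PS1 (log2 change -0.27, SE 0.05, edgeR adjusted p 1.18e-05) and fell by 14.2% against WT (log2 change -0.22, SE 0.04, edgeR adjusted p 0.000201). The change in APP/PS1 against WT was 0.05 and did not pass (edgeR adjusted p 0.325). On the marker-sum scale that change was -0.39 and the change in cKO against APP/PS1 was -0.01, so on that scale both groups with the transgenes were lower than WT. Adora3 counts carry an added uncertainty because 779 of its 3729 exonic nt are also annotated to Tmigd3 on the same strand, which read 0.800 CPM on average over the libraries.

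The monocyte and neutrophil markers and most B cell markers moved beside Entpd3, Nt5e and Adora2a between APP/PS1 and the other groups. All 15 monocyte and neutrophil markers fell in APP/PS1 against WT and all 15 rose in cKO against APP/PS1, the directions that Entpd3, Nt5e and Adora2a had. Against WT, 13 of the 15 rose in cKO, where Entpd3 and Nt5e rose and Adora2a fell. The microglia markers Csf1r (log2 changes -0.48 and 0.23) and Spi1 (-0.19 and 0.23) also fell in APP/PS1 against WT and rose in cKO against APP/PS1. Most of the 17 microglia markers went the other way, with 11 higher in the first of these comparisons and 10 lower in the second. Of all tested genes, 32.0% were lower in the first and 27.3% higher in the second. The 7 measured B cell markers were summed at 199 to 207 CPM for WT, 156 to 160 CPM for APP/PS1 and 169.8 to 174 CPM for cKO, and the 13 measured T and NK cell markers at 77.5 to 79.8 CPM, 99.5 to 100.3 CPM and 82.6 to 84.4 CPM. Of the B cell markers 6 of 7 fell in APP/PS1 against WT (list median -2.72 on the log2 scale) and 5 of 7 rose in cKO against APP/PS1 (median 1.27), the directions of these genes, but in cKO against WT 1 rose and 5 fell (median -0.27), where Entpd3 and Nt5e rose. Their sum is mostly Blnk (172 of 204 CPM in WT). Of the 12 T and NK markers tested, 7 were higher and 2 lower in APP/PS1 than in WT, 2 higher and 9 lower in cKO than in APP/PS1 (median -0.48), and 4 higher and 1 lower in cKO than in WT. The most abundant of them, Il7r, differed from most of its list, at 21.7, 15.0 and 22.8 CPM in WT, APP/PS1 and cKO. The 8 border macrophage markers were summed at 562.5 to 578 CPM for WT, 423 to 441 CPM for APP/PS1 and 381 to 402 CPM for cKO, and the 20 early response genes, which rise during cell isolation, at 29010 to 30640 CPM, 23530 to 24820 CPM and 24680 to 25970 CPM. The part of these cells and of the isolation response in the results on the 10 genes was not tested.

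**Figure D3:**
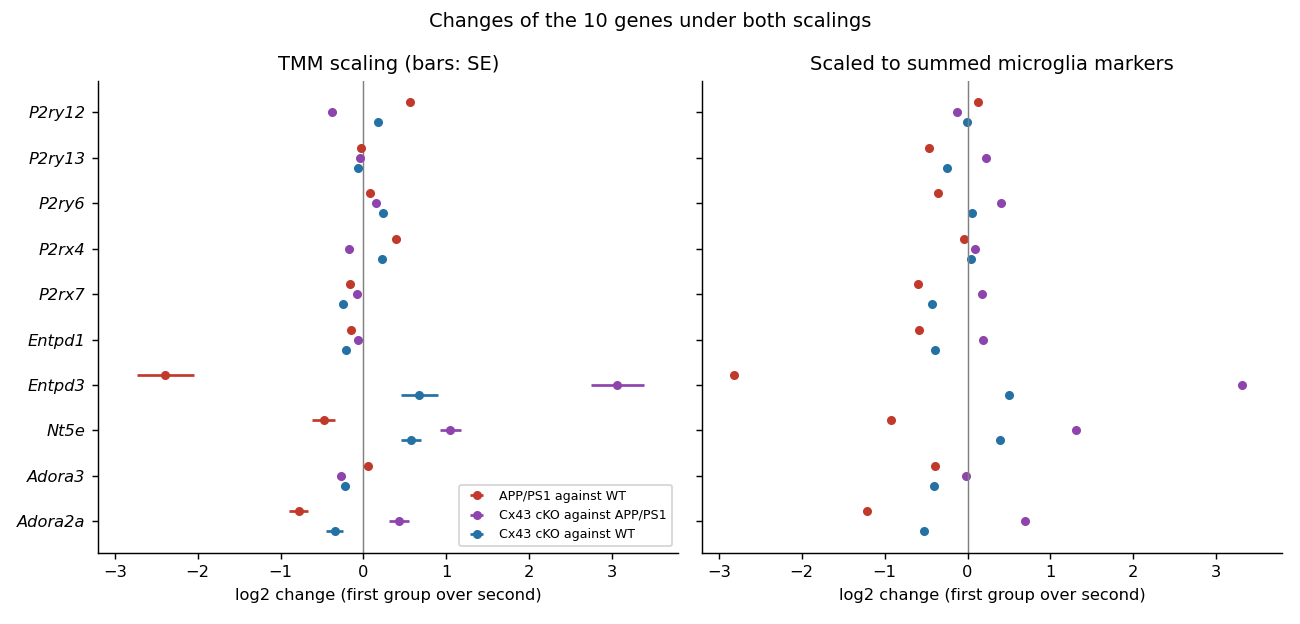
Log2 change (x axis) of the 10 genes in APP/PS1 against WT, cKO against APP/PS1 and cKO against WT, under TMM scaling with SE bars (left) and with libraries scaled to the summed microglia markers (right, no bars drawn). Entpd3, Nt5e and Adora2a keep their directions in both panels, whereas P2rx4, P2ry6 and Adora3 in APP/PS1 against WT move to the other side of 0.

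How many of the 10 genes counted as higher or lower depended on the scale. TMM assumes that most genes keep their level. Scaling to the summed microglia markers gave 1 higher and 8 lower in APP/PS1 against WT, 7 higher and 1 lower in cKO against APP/PS1 and 1 higher and 5 lower in cKO against WT. That scale moved the median of all genes to -0.47, 0.25 and -0.19, and the share of called genes that were higher went from 45.7% to 12.7%, from 49.6% to 80.7% and from 51.9% to 20.7%. Relative to the median shift, P2ry12, P2ry13, P2ry6, P2rx4 and Adora3 in APP/PS1 against WT stood above that median. The markers did not move evenly, since 11 of 17 were higher and 4 lower in APP/PS1 than in WT (log2 changes of -0.48 to 3.02). The directions of P2rx7, Entpd1, Entpd3, Nt5e and Adora2a in APP/PS1 against WT held in every alternative run in which the gene could be tested, as did those of P2ry12 and Adora3 (lower) and of P2ry6, Entpd3, Nt5e and Adora2a (higher) in cKO against APP/PS1. Direction here is the sign alone. In both fits with length offsets, P2rx7 (-0.05) and Entpd1 (-0.03) did not pass in APP/PS1 against WT, and 5 of the 10 genes were called.

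Levels between genes were compared on the deposited TPM, which corrects for transcript length. In WT the mean TPM was 1609 for P2ry12, 528 for P2ry13, 301.5 for Entpd1, 93.5 for P2rx7, 89.5 for P2ry6, 60.8 for Adora3, 41.7 for P2rx4, 7.12 for Adora2a, 2.82 for Nt5e and 1.19 for Entpd3. P2rx7 and P2ry6 overlapped in WT, and no other neighbours in the order did. In APP/PS1 and cKO the order was the same except that P2ry6 (72.0 and 91.6 TPM) stood above P2rx7 (65.5 and 71.0 TPM), with no overlap between any neighbours. P2ry12 ranked 84 among all 18571 genes by mean TPM in WT, 102 in APP/PS1 and 89 in cKO, and Entpd3 ranked 13151, 15314 and 12221. Nt5e and Adora2a, at 11634 and 9630 in the WT order, thus stood far below both ADP receptors in length-corrected level.

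**Figure D4:**
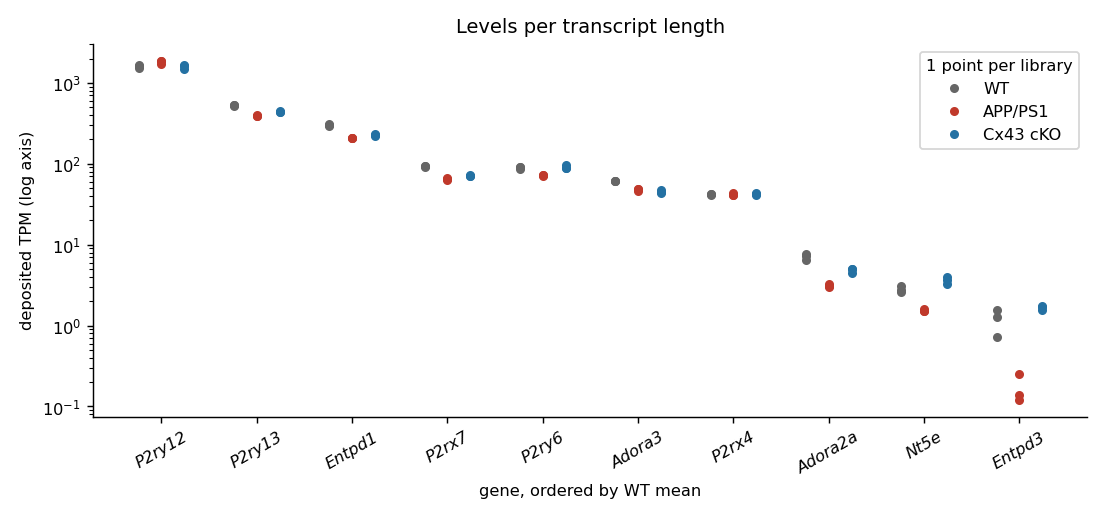
Deposited TPM (log axis) of the 10 genes, ordered by their WT mean, with 1 point per library and a colour per group. P2ry12 sits at the top in every library, and Adora2a, Nt5e and Entpd3 at the bottom, with WT means of 7.12, 2.82 and 1.19 TPM.

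The wider purine pathway was described with 57 further genes, of which 52 were tested. In APP/PS1 against WT 33 of them passed (13 higher, 20 lower), in cKO against APP/PS1 32 passed (20 higher, 12 lower) and in cKO against WT 38 passed (21 higher, 17 lower), where 59.0%, 55.0% and 47.7% of all tested genes did. The counts by role that follow are descriptions, to be read against the shares of all genes, which were 26.9% higher and 32.0% lower in the first comparison, 27.3% and 27.7% in the second, and 24.7% and 23.0% in the third. On the marker-sum scale these splits were 6 higher and 37 lower, 33 higher and 6 lower, and 10 higher and 21 lower. The median log2 change of the 52 genes was -0.04, 0.12 and 0.13 (Entpd4, listed at 0 in cKO, lies below it in the last 2).

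Of the 12 other receptors tested, 2 were higher and 3 lower in APP/PS1 than in WT (all genes 26.9% and 32.0%), 4 were higher and 3 lower in cKO than in APP/PS1, and 3 were higher and 5 lower in cKO than in WT. Gpr34, a P2Y-like receptor for lysophosphatidylserine found on microglia, was at 601 CPM ± 22.0 for WT, 1424 CPM ± 63.1 for APP/PS1 and 1006 CPM ± 50.5 for cKO (SD, n = 3). Its log2 change was 1.24 in APP/PS1 against WT (SE 0.04, edgeR adjusted p 1.59e-14), and it followed the order of P2ry12 and P2rx4. P2ry2 fell by 1.23 on the log2 scale in APP/PS1 (SE 0.11, edgeR adjusted p 8.40e-10) and rose by 0.91 in cKO against APP/PS1 (SE 0.12, edgeR adjusted p 4.08e-07). Adora1, the high-affinity adenosine receptor, was at 10.7 CPM ± 0.852 for WT, 15.1 CPM ± 0.553 for APP/PS1 and 21.9 CPM ± 1.08 for cKO (SD, n = 3), with a log2 change of 1.04 in cKO against WT (SE 0.07, edgeR adjusted p 4.26e-12). Gpr17, a receptor known from oligodendrocyte precursors, was 0.96 higher in cKO than in WT (SE 0.12, edgeR adjusted p 1.38e-07). Of 10 oligodendrocyte markers, 2 were higher and 2 lower in that comparison (log2 change -0.41 to 0.68), and the part of these cells was not tested.

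Of the 22 other tested enzymes that act on nucleotides or nucleosides, 7 were higher and 8 lower in APP/PS1 than in WT. The shares of all genes were 26.9% and 32.0%. In cKO, 8 were higher and 7 lower than in APP/PS1, and 11 were higher and 5 lower than in WT. Bst1, a surface enzyme that cleaves NAD and is known from myeloid cells, was at 7.52 CPM ± 0.554 for WT, 2.11 CPM ± 0.382 for APP/PS1 and 19.6 CPM ± 0.879 for cKO (SD, n = 3). Its log2 changes were -1.83 in APP/PS1 against WT (SE 0.13, edgeR adjusted p 4.35e-12), 3.21 in cKO against APP/PS1 (SE 0.11, edgeR adjusted p 8.99e-19) and 1.38 in cKO against WT (SE 0.09, edgeR adjusted p 3.56e-13). Ada, the deaminase that removes adenosine, was at 4.43, 1.82 and 5.28 CPM, and fell by 1.28 in APP/PS1 against WT on the log2 scale (SE 0.17, edgeR adjusted p 2.40e-07) and rose by 1.53 in cKO against APP/PS1 (SE 0.16, edgeR adjusted p 8.60e-09). Its change in cKO against WT was 0.25 and did not pass (edgeR adjusted p 0.130, libraries overlapping). In the comparisons of APP/PS1 with WT and of cKO with APP/PS1, Bst1 and Ada moved in the directions of Nt5e and Entpd3 and of the monocyte and neutrophil markers. Entpd4b was 1.13 higher in cKO than in WT (SE 0.12, edgeR adjusted p 5.76e-05), but it is nearly identical to Entpd4, which was listed at 0 in every cKO library and at 0 to 117 counts elsewhere, so the split of reads between them is uncertain.

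Of the 10 genes for nucleotide release and nucleoside transport, 1 was higher and 6 lower in APP/PS1 than in WT (all genes 26.9% and 32.0%), 2 higher and 1 lower in cKO than in APP/PS1, and 1 higher and 6 lower in cKO than in WT. Slc28a2, a concentrative nucleoside carrier, was at 15.2 CPM ± 1.02 for WT, 4.20 CPM ± 0.195 for APP/PS1 and 16.6 CPM ± 1.09 for cKO (SD, n = 3), changing by -1.85 on the log2 scale in APP/PS1 against WT (SE 0.10, edgeR adjusted p 5.19e-15) and 1.98 in cKO against APP/PS1 (SE 0.10, edgeR adjusted p 1.21e-15). In both of these comparisons Slc28a2, like Bst1 and Ada, moved in the directions of the monocyte and neutrophil markers. Calhm6 was at 4.75 CPM for APP/PS1 and 2.31 CPM for cKO (log2 change -1.04, SE 0.17, edgeR adjusted p 1.34e-05). Of the 8 signalling proteins coupled to the receptors, 3 were higher and 3 lower in APP/PS1 than in WT, and 6 were higher and 1 lower in both comparisons of cKO (all genes 27.3% and 27.7% against APP/PS1, 24.7% and 23.0% against WT). Gnas, whose Gs protein couples to ADORA2A, was at 558 CPM ± 16.2 for WT, 1106 CPM ± 25.5 for APP/PS1 and 1260 CPM ± 11.9 for cKO (SD, n = 3), a log2 change of 1.18 in cKO against WT (SE 0.03, edgeR adjusted p 2.58e-22), where Adora2a itself was lower.

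**Figure D5:**
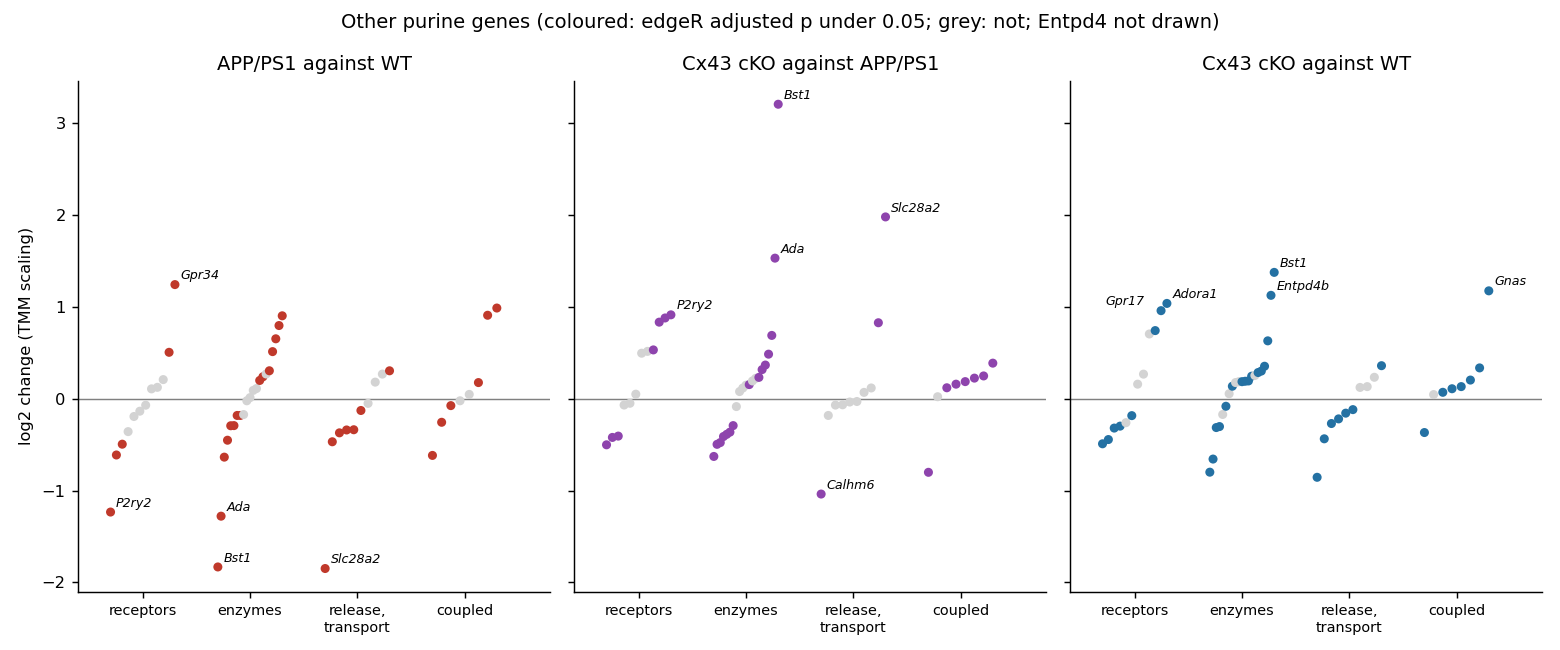
Log2 change under TMM scaling (y axis) of the other tested purine genes, grouped as receptors, enzymes, release and transport, and coupled proteins, in the 3 comparisons; coloured points passed an edgeR adjusted p of 0.05, grey points did not, and Entpd4 is not drawn. Bst1 and Slc28a2 lie at -1.83 and -1.85 in APP/PS1 against WT and at 3.21 and 1.98 in cKO against APP/PS1.

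For the 8 members with a mean of at least 5 CPM, the 2 genes with the nearest pattern of log2 CPM over the 9 libraries were searched among 10897 genes, by Euclidean distance after centring each gene. Nearest were Serinc1 (distance 0.105) and Rpl4 (0.124) to P2ry12, Scarb2 (0.0526) and Itprid2 (0.0620) to P2ry13, Rtn3 (0.0875) and Scpep1 (0.0956) to P2ry6, and Anp32a (0.0583) and P4ha1 (0.0744) to P2rx4. For the others they were B4galt6 (0.0509) and Champ1 (0.0692) to P2rx7, Lpcat2 (0.0434) and Pecam1 (0.0613) to Entpd1, Cd82 (0.0889) and Mast4 (0.104) to Adora3, and Arhgap4 (0.192) and Cd209c (0.1996) to Adora2a. Members were left out of the search by rule, and these distances say only that other genes had the same course over the 3 groups. Within groups, P2ry12 and Entpd1 were lowest in replicate 2 and Nt5e in replicate 1 in all 3 groups, and whether equal numbers mark a shared preparation is not given in the labels.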

How the data were processed

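Poly-A RNA of 9 microglia libraries was read on DNBSEQ in single-end reads of 50 nt, per the labels' protocols. The submitters' processing notes name HISAT, Bowtie2, DESeq2 and the build GRCm38.p6, without saying what each was used for, and the counting program is not given in the sources used here. Per the file headers, the authors deposited an estimated count, an FPKM and a TPM value for each gene and library. The authors' expected counts carry no scaling between libraries. FPKM as deposited corrects for transcript length and library size, and TPM as deposited sums to the same total in each library. Expected counts depend on how reads of isoforms and near-identical genes were split, TPM also on which other transcripts a library holds.

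Estimated counts were rounded to whole numbers, although the design had assumed plain counts, and tested with edgeR 4.0.16 (R 4.3.3) in a quasi-likelihood fit of all 9 libraries, with TMM scaling, filterByExpr by group and robust dispersion. P-values were adjusted by Benjamini-Hochberg over 14696 genes, and 0.05 was the threshold. CPM uses TMM-scaled library sizes. For ratios, exact permutation tests (two-sided, SciPy 1.17.1) were used, which reach 0.1 at the lowest for 3 against 3, and 39 of them form the family adjusted together. The edgeR step was tested on simulated data. Alternatives were DESeq2 1.42.0 size factors and its Wald test, library totals, the summed microglia markers as scale, limma-voom and limma-trend (limma 3.58.1) on log2(TPM + 1), log2(FPKM + 1) and log2(FPKM + 0.1), other filters, offsets over 10 length bins, the replicate number as a block, and leaving out each library. The geometric mean of the microglia markers was added after seeing the data.

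The 10 members, all gene lists and the pairs of members compared as ratios were chosen with earlier results of these data known. Named besides the members were, in each comparison, up to 5 further purine genes with the largest change among called genes averaging 1 CPM or more, the 2 genes of nearest pattern for members at 5 CPM or more (leaving out unnamed gene models), adjoining genes, and Gja1, Cx3cr1 and Ddx3y as checks of the labels. Cx3cr1, whose locus carries CreER, was at 2260 CPM for WT, 2231 CPM for APP/PS1 and 1214 CPM for cKO. Positions and promoter windows come from RefSeq on GRCm38.p6, and 8 of the 10 members had a window. Counting error limits Entpd3, Nt5e and Adora2a most, which had 4 to 156 counts in a library. Astrocyte markers (12) were summed at 611 to 625 CPM for WT, 835 to 856 CPM for APP/PS1 and 659.8 to 677 CPM for cKO, neuron markers (12) at 63.1 to 68.8 CPM, 68.3 to 79.5 CPM and 47.4 to 50.4 CPM, vessel markers (12) at 1162 to 1177 CPM, 1104 to 1112 CPM and 815 to 842 CPM, oligodendrocyte markers (10) at 2296 to 2363 CPM, 2386 to 2434 CPM and 2275 to 2342 CPM, and erythroid markers (8) at 1194 to 1250 CPM, 248 to 275 CPM and 96.2 to 107 CPM.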

Additional observations from a re-analysis of the deposited data

How the results depend on the processing

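Requiring a change of at least 2-fold left 1, 2 and 0 of the 10 genes called in APP/PS1 against WT, cKO against APP/PS1 and cKO against WT, and 5, 4 and 4 of the other purine genes. Of the 10 genes, those left were Entpd3 in the first comparison, and Entpd3 and Nt5e in the second. In cKO against WT, 6 of the 10 genes were called when scaled to the summed microglia markers and 6 on log2(TPM + 1). Leaving out 1 library gave 7 genes in APP/PS1 against WT, 7 to 8 in cKO against APP/PS1 and 8 to 10 in cKO against WT, and 29 to 34, 30 to 34 and 32 to 37 other purine genes.

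Called changes turned, or uncalled ones passed the other way, under the marker sum, the marker geometric mean and TPM, given here in that order as log2 changes, some of which did not pass. In APP/PS1 against WT these were -0.36, -0.44 and -0.31 for P2ry6 and -0.39, -0.47 and -0.34 for Adora3, while P2rx4 was at -0.0402 and -0.12 under the first and second. Changes in APP/PS1 against WT that passed neither way also turned, to -0.0582 (library totals) and -0.0566 (log2(FPKM + 1)) for P2ry6, to -0.0859 and -0.0838 for Adora3, and to 0.0069 (only the groups compared) and 0.0084 (length offsets) for P2ry13. In cKO against APP/PS1 they were 0.22, 0.14 and 0.15 for P2ry13, 0.0874, 0.0107 and 0.0248 for P2rx4, 0.18, 0.10 and 0.11 for P2rx7 and 0.19, 0.12 and 0.13 for Entpd1. In cKO against WT P2ry12 was at -0.0014, -0.16 and -0.0186, and the geometric mean put P2ry6 at -0.11 and P2rx4 at -0.11. These scales move the median of all genes in APP/PS1 against WT to -0.47, -0.56 and -0.35, in cKO against APP/PS1 to 0.25, 0.17 and 0.14, and in cKO against WT to -0.19, -0.35 and -0.17, and library totals move it to -0.17, 0.02 and -0.12. The share of called genes that were higher was 45.7%, 49.6% and 51.9% in the 3 comparisons with TMM, 10.3%, 74.6% and 9.96% with the geometric mean, 14.7%, 75.3% and 19.8% on TPM, and 29.5%, 54.8% and 30.4% with library totals (30.2%, 54.4% and 32.0% on FPKM).

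Same-numbered libraries correlated by 0.06 to 0.26 in their deviations from the group means (9 pairs), and 8 of 9 libraries correlated best with their own number in the other groups, a hint from the data and not from the design. With the replicate number as a block, 8, 10 and 10 of the 10 genes were called, against 7, 8 and 10 without it, and all-gene calls rose too, from 8670, 8085 and 7010 to 9319, 8851 and 7934. The calls gained were P2ry6 in the first comparison (edgeR adjusted p 0.0321) and P2ry13 (0.0184) and Entpd1 (0.000531) in the second. Also in the second, 1 member not called in the main fit passed with limma-voom, and 1 with at least 10 counts in every library. In that comparison 1 called member was lost with the DESeq2 Wald test, with library totals, on either FPKM scale and with no filter on low counts. Entpd3 could not be tested with at least 10 counts in every library. Low counts limit what can be read from Entpd3, Nt5e and Adora2a. On log2(FPKM + 1) the changes of Entpd3 shrank to -0.48 and 0.72 in the first and second comparison.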
